A study of Arabidopsis with 8 samples.

Results

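The drought response of wild-type (WT) leaves of *Arabidopsis* was measured as WT drought versus WT control on Affymetrix ATH1 arrays, which read each transcript with a set of short probes. The comparison rests on 4 of the 8 arrays of the study, 2 from WT leaves left without water and 2 from well-watered WT leaves, and it takes in all 22746 probe sets that are not Affymetrix controls. WT plants were of the Col-0 ecotype, grown in soil and 2 weeks old when treatment began, and leaves came from no fewer than 20 seedlings of each genotype. The sample labels give 14 d without water for the drought group and the same harvest day for the control group. A shorter time stands in the paper for the arrays. The other 4 arrays, used below for a test of the difference between genotypes, came from nNOS transgenic plants of the same ecotype and age under the same 2 treatments. These plants carry a rat gene for neuronal nitric oxide synthase under a constitutive cauliflower mosaic virus promoter, and the labels name 1 transgenic line for the RNA, whereas the paper describes a pool of lines. Per the labels, nutrient solution was part of the regular irrigation, and whether it continued in the pots without water is not stated, so lack of water and of solution cannot be told apart. Nothing says that the 2 samples of a group were grown separately, and p-values cover no more than the spread between these samples.

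Plants that run short of soil water make the hormone abscisic acid, which closes stomata, and they switch on genes for protective proteins and compatible solutes while growth slows. Metal ions, phosphate and nitrogen reach the shoot in the water stream, and leaves hold separate regulatory systems that respond to shortage or excess of each. Transcripts of those systems, and of heat stress, defence and growth, are described in turn.

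In the WT, 75 probe sets were higher after drought (0.33% of the 22746 tested) and 79 were lower (0.347%), together 154 (0.677%), where a call needs a limma adjusted p up to 0.05 and a fold change of 1 or more in size on the log2 scale. With the adjusted p alone and no threshold on the fold change, 1357 were higher (5.97%) and 1118 lower (4.92%). These 2 shares are the background for each count of list members at the adjusted p below. After median centring 1165 were higher and 1396 lower, so the balance turned. The median log2 fold change over all probe sets was -0.04 with an SD of 0.29, so most of the response lay well under 2-fold, and 1628 probe sets differed by at least 0.5 in size. Of the called probe sets, 9 of the higher and 8 of the lower ones passed 2 in size, which is a 4-fold change. The 2 drought arrays did not overlap the 2 control arrays for any called probe set, but the same was true of 64.1% of all probe sets. In each of the 4 pairings of 1 drought with 1 control array, 105 of the 154 called probe sets (46 higher and 59 lower) differed by at least 1 in size, and the smallest difference in any pairing was 0.595. Calls were rare among dim transcripts. When the probe sets were split into 4 equal bins by signal, the dimmest bin held 3 calls and the others 46 to 58 each. Called higher genes went from a median log2 signal of 4.95 to 6.27, and called lower genes from 6.58 to 5.04.

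**Figure D1:**
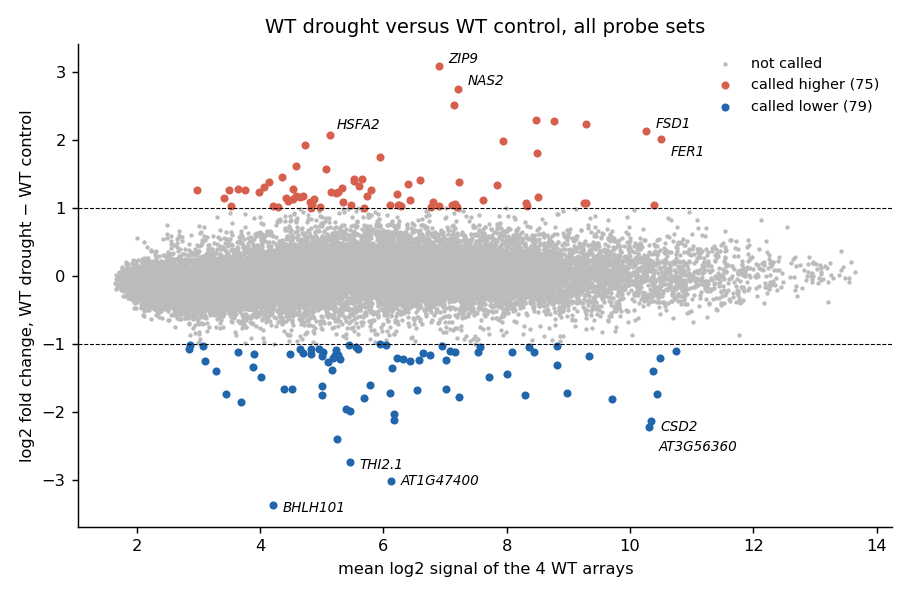
Log2 fold change of WT drought versus WT control (vertical axis) against the mean log2 signal of the 4 WT arrays (horizontal axis) for each of the 22746 probe sets, with called probe sets in colour and dashed lines at a fold change of 1 in size. The 75 higher and 79 lower calls surround a cloud whose SD is 0.29, and the genes farthest from 0 are ZIP9 at 3.09 and BHLH101 at -3.36.

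The RNA carried leaf transcripts in quantity. The 6 measured nuclear genes of photosynthesis had log2 signals between 10.42 and 13.24 on the 4 WT arrays. Their median log2 fold change was 0.15, and 1 of 6 passed the adjusted p, PRK, which encodes phosphoribulokinase (0.46, limma adjusted p = 0.0273, lost in each of the 4 fits without 1 WT array). Markers of the guard cell, the phloem and the root were each measured by 1 named gene, and none passed the adjusted p of 0.05. FMA, a guard cell regulator, differed by 0.07, the sugar transporter gene SWEET11 of the phloem by 0.2 and the root hair gene EXPA7 by -0.53, the last at dim signals of 3.57 and 3.04. In leaf RNA, fewer cells of a type and less RNA per cell cannot be told apart. The poly-A control RNAs, which go into the RNA ahead of labelling, averaged 6.88 on the log2 scale on both WT control arrays and 6.11 and 6.04 on the WT drought arrays. GAPDH control probe sets at the 3′ end exceeded those at the 5′ end, a measure of RNA integrity, by 1.32 and 1.02 in WT control and by 0.64 and 0.78 in WT drought. For the actin controls the same difference moved the other way, from 3.03 and 3.41 to 3.63 and 3.58. The part of these differences in the results was not tested.

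Several genes of the zinc deficiency response stood among the largest rises in the WT. Of the 2 listed zinc genes that the platform annotation names, 1 was higher (ZIP9), and 7 more were named from the study's own table of genes called on these arrays, so they are examples and no count of the list. This response is known to raise zinc uptake through transporters of the ZIP family and the making of nicotianamine, a small chelator that carries metals within the plant. ZIP9 (AT4G33020), a zinc transporter gene, had log2 signals of 5.22 and 5.5 on the WT control arrays and 8.46 and 8.43 on the WT drought arrays, an 8.51-fold rise (log2 fold change 3.09, SE 0.124, n = 2 per group, limma adjusted p = 7.79e-07). NAS2 (AT5G56080), which encodes a nicotianamine synthase, went from 5.69 and 5.98 to 8.61 and 8.57, a 6.75-fold rise (limma adjusted p = 1.08e-06). The transporter gene ZIP4 (AT1G10970) had 7.35 and 7.31 in control and 9.64 and 9.61 in drought leaves (4.92-fold). For all 3 genes the drought arrays lay within 0.1 of each other and far above both control arrays. Among the remaining transporters, IRT3 went from 8.21 and 8.12 to 10.38 and 10.42 (4.71-fold), with both drought arrays at nearly the same level. ZIP3 rose 3.79-fold from a dim 3.89 and 3.66 to 5.62 and 5.78, and ZIP5 rose 3.52-fold from 7.71 and 7.46 to 9.39 and 9.41. The synthase gene NAS3 rose 3.96-fold, from 6.85 and 7.05 to 8.92 and 8.95. NAS1 stood at the threshold with a log2 fold change of 1.01 (6.77 and 6.62 against 7.69 and 7.73), and it lost its call without WT control replicate 2 (0.94) and without WT drought replicate 2 (0.99). bZIP19, a transcription factor gene that drives this response, differed by 0.11 (limma adjusted p = 0.555). It was the other annotated gene of the 18 listed.

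Of the listed iron deficiency genes several were lower, and 2 ferritin genes were higher. BHLH101 (AT5G04150), a transcription factor gene that iron shortage induces, had the largest change of all probe sets in the WT. It went from 5.8 and 5.99 on the control arrays to 2.5 and 2.57 on the drought arrays, a log2 fold change of -3.36 (SE 0.109, n = 2 per group, limma adjusted p = 1.94e-07). Its signal in drought was as low as that of the dimmest probe sets, which leaves the extent of this fall uncertain. AT1G47400, of a family of small iron-responsive peptides, fell 8.07-fold, from 7.58 and 7.68 to 4.6 and 4.64 (limma adjusted p = 9.25e-07). Both genes were tightly grouped within each treatment. The 5 iron deficiency genes that the platform annotation names had a median log2 fold change of -0.54. Of these, 3 were lower and none was higher at the adjusted p of 0.05 (4.92% and 5.97% of all probe sets). The third was PYE, a regulator of the response in the root (-0.54, limma adjusted p = 0.0206), which lost the adjusted p without WT control replicate 2 (-0.42), without WT drought replicate 1 (-0.44) and without WT drought replicate 2 (-0.65). AT1G18910 and AT1G74770 differed by -0.12 and -0.04, neither past the adjusted p, both at dim signals.

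Further iron genes were named from the study's table. The ferric reductase gene FRO3 went from 6.94 and 7.18 to 5.93 and 5.7, a 2.36-fold fall. BTS, an E3 ubiquitin ligase gene that restrains the iron response, went from 7.55 and 7.72 to 6.48 and 6.34 (2.34-fold lower). OPT3, a gene of iron movement in the phloem, differed by -0.79 (limma adjusted p = 0.00322). In the opposite direction, the ferritin gene FER1 (AT5G01600), whose protein stores iron in the plastid, had 9.51 and 9.5 in control and 11.51 and 11.52 in drought leaves, a 4.03-fold rise (limma adjusted p = 1.95e-06). FER4, another ferritin gene, rose 2.04-fold (7.82 and 7.81 to 8.76 and 8.92), though its log2 fold change was 0.95 without WT drought replicate 2, under the threshold. ORG1, which is outside the iron list and was picked from the calls, was lower at -1.04 and likewise had -1.0 without that array. The control arrays were the higher ones for FRO3, BTS and ORG1, and the drought arrays for both ferritins.

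**Figure D2:**
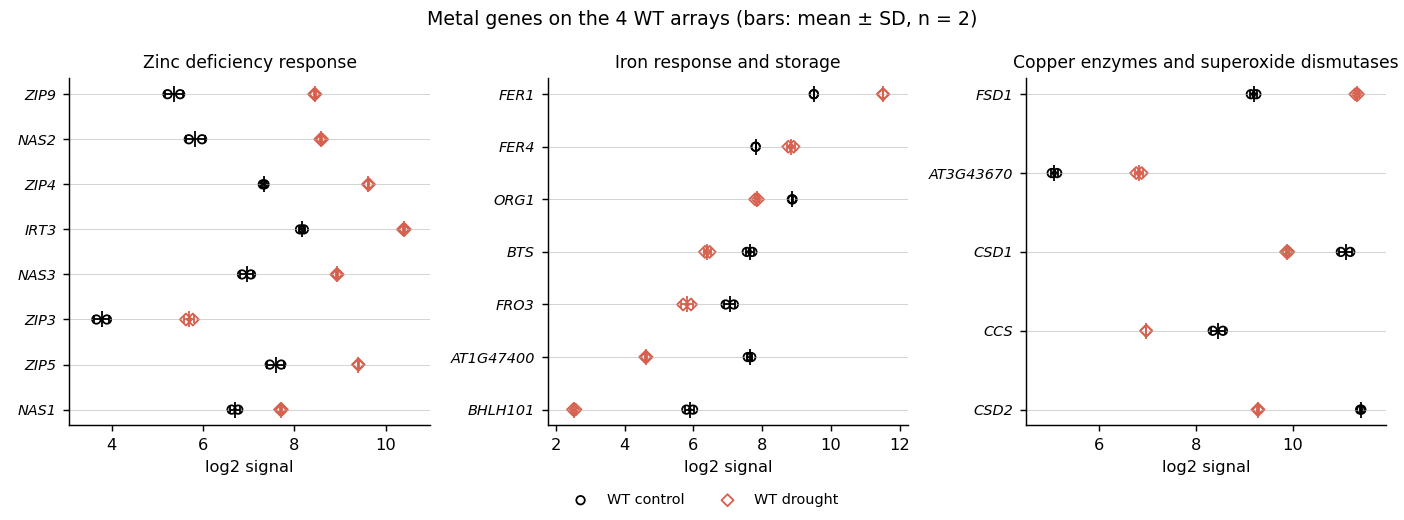
Log2 signal (horizontal axis) of genes of the zinc response, of iron response and storage, and of copper enzymes and superoxide dismutases on the 2 WT control (circles) and 2 WT drought (diamonds) arrays, with the mean and SD of each group (n = 2). The genes plotted are called ones, and ORG1 is outside the iron list. ZIP9 spans the widest gap of the zinc panel, FER1 and FER4 lie to the right in drought and BHLH101 to the left, and FSD1 rises while CSD1, CCS and CSD2 fall.

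Of the superoxide dismutases, which remove superoxide, 3 genes were called and named, 2 of them lower and 1 higher. CSD2 (AT2G28190), the copper/zinc enzyme of the plastid, had 11.42 and 11.4 in WT control and 9.27 and 9.29 in WT drought, a 4.37-fold fall (log2 fold change -2.13, SE 0.0996, limma adjusted p = 1.08e-06). CSD1, its cytosolic relative, went from 11.19 and 11.0 to 9.86 and 9.91 (2.31-fold lower), and CCS, the chaperone that loads copper into both, from 8.56 and 8.34 to 6.97 and 6.97 (2.8-fold lower). FSD1 (AT4G25100), the iron enzyme, went the other way, from 9.25 and 9.13 to 11.3 and 11.35, a 4.39-fold rise (limma adjusted p = 2.48e-06). The 4 genes had no overlapping arrays, which held for every called probe set and for 64.1% of all probe sets. AT3G43670, of the copper amine oxidase family, rose 3.36-fold, from 5.01 and 5.12 to 6.87 and 6.76. Of the 26 listed copper genes only CCS and ARPN, a plantacyanin gene (-0.18, limma adjusted p = 0.425), had an annotated name. UCC2, a uclacyanin gene named from the study's table, differed by -0.65 (limma adjusted p = 0.0104), which was lost without WT control replicate 2 (-0.57), WT drought replicate 1 (-0.69) and WT drought replicate 2 (-0.62). Other antioxidant enzymes moved little, with a median of 0.29 over 4 annotated genes and 1 past the adjusted p, the stromal ascorbate peroxidase gene SAPX (0.54, limma adjusted p = 0.0285, lost in each of the 4 fits without 1 WT array).

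Glutaredoxin genes made up 7 of the 154 calls, 6 lower and 1 higher. The class is known only for genes that the study called in some comparison, so no share of the family can be given. Glutaredoxins are small thiol enzymes, and a plant-specific class of them acts with transcription factors. The 4 lower genes of a cluster of neighbouring loci came first. AT4G15680 had 6.93 and 7.0 on the WT control and 5.15 and 5.35 on the WT drought arrays, a 3.29-fold fall (limma adjusted p = 3.12e-05). AT4G15700 went from 5.19 and 5.51 to 3.8 and 3.59 (3.16-fold), AT4G15690 from 6.55 and 6.63 to 5.05 and 4.93 (3.04-fold), and AT4G15660 from 5.81 and 5.88 to 4.7 and 4.65 (2.24-fold). The outer neighbours AT4G15650 and AT4G15710 were dim in both groups and differed by -0.29 and -0.12, neither past the adjusted p. These genes are close copies, so their probes may read each other's transcripts. Away from the cluster, AT1G06830 fell 2.7-fold from 8.64 and 8.79 to 7.27 and 7.3, and AT3G62930 fell 2.3-fold. AT5G11930 was the exception and rose 2.15-fold, from 3.86 and 3.95 to 4.99 and 5.04. The glutaredoxins were grouped after their values were seen.

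Heat stress genes held 10 calls by the class the study assigns, 8 of them higher. The study gives that class only for genes called in some comparison, so no share of the class can be given. HSFA2 (AT2G26150), a heat stress transcription factor gene, was at 4.11 and 4.1 in WT control and 6.17 and 6.19 in WT drought, a 4.19-fold rise (log2 fold change 2.07, SE 0.11, n = 2 per group, limma adjusted p = 2.5e-06). MBF1C, a coactivator gene of the heat response outside that class, went from 7.1 and 7.25 to 8.5 and 8.54 (2.54-fold higher). HSP90.1, for a cytosolic chaperone, rose 3.06-fold from 3.68 and 3.89 to 5.29 and 5.5. The chaperone genes HSP70 and AT3G09440 rose 2.32-fold (4.74 and 4.52 to 5.78 and 5.91) and 2.11-fold (8.81 and 8.69 to 9.79 and 9.86), and HSP101, whose protein dissolves aggregates, rose 2.05-fold (5.58 and 5.59 to 6.64 and 6.6). All of these drought values stood above all control values, as for every probe set called higher. AT5G51440, a small heat shock protein gene, rose 2.61-fold and the heat-induced immunophilin gene AT5G48570, also outside the class, 2.22-fold. AT2G20560, of the DnaJ co-chaperone family, had control signals of 2.78 and 3.46 that lay apart, and its log2 fold change of 1.26 was 0.92 without WT control replicate 1, where its call was lost.

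The rise did not extend through the heat list. Of 7 annotated members, 1 was higher (AT5G51440) and 1 lower (HSA32, -0.51, limma adjusted p = 0.0143, lost in each of the 4 fits without 1 WT array) at the adjusted p, with a median of 0.10. The small heat shock protein genes AT1G53540, ATHSP22.0 and AT5G37670 differed by -0.11, 0.1 and -0.01, and AT2G29500 by 0.3, none past the adjusted p. These genes were dim, with group means from 2.94 to 4.75 on the log2 scale. In the same class of the study, AT4G21870, a small heat shock protein gene, fell 2.19-fold from 7.1 and 7.33 to 6.07 and 6.1. AT2G17880, of the DnaJ family, was lower at -1.03, and it lost its call without WT control replicate 1 (-0.96) and without WT drought replicate 2 (-0.97).

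Defence genes were found among both the higher and the lower calls, and most of those named here have a name only because they were called. In the salicylic acid list, GRX480 and SAG101, the 2 annotated members, differed by 0.12 and 0.23, and NIMIN1, named from the study's table, by 0.55 (limma adjusted p = 0.0544), none past the adjusted p. PAD3 (AT3G26830), for the last enzyme of camalexin synthesis, rose 2.99-fold from 4.26 and 4.31 to 5.94 and 5.8 (log2 fold change 1.58, SE 0.146, limma adjusted p = 0.000158). CYP71A13, which acts earlier in that pathway, went from 4.26 and 4.38 to 5.34 and 5.32, and its log2 fold change of 1.01 was under the threshold without WT control replicate 1 (0.94) and without WT drought replicate 1 (1.0). Of the genes that make or regulate salicylic acid, SARD1, a transcription factor gene, rose 2.13-fold (4.77 and 4.82 to 5.96 and 5.82) and PBS3, for an enzyme of its synthesis, 2.25-fold (4.03 and 4.1 to 5.18 and 5.29). AIG1, induced in bacterial infection, rose 2.68-fold (4.77 and 5.13 to 6.48 and 6.27), and YLS9, a gene of hypersensitive cell death and senescence, 2.47-fold (4.54 and 4.81 to 5.86 and 6.1). The drought arrays lay above the control arrays for each of them, as for every probe set called higher. FMO1, a gene of systemic resistance, had 2.79 and 2.92 in control and a wide 4.41 and 3.84 in drought leaves, and without WT drought replicate 1 its log2 fold change of 1.27 became 0.99 and its call was lost. The receptor kinase gene WAK1 rose from 8.8 and 8.65 to 9.85 and 9.74 (1.07), and its value was 1.0 without WT control replicate 2, where its call was lost. The bright marker genes BGL2, for a secreted glucanase, and PR5 were higher by 0.72 and 0.83, past the adjusted p (limma adjusted p = 0.00384 and 0.00233) but not the fold threshold, and BGL2 lost the adjusted p without WT drought replicate 1 (0.69).

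Among the lower defence genes, picked from the calls, the largest fall was that of THI2.1 (AT1G72260), a thionin gene induced by jasmonate, which went from 6.56 and 7.09 to 4.08 and 4.11, a 6.64-fold fall (SE 0.15 on the log2 scale, limma adjusted p = 3.11e-06). The thionin family gene AT1G66100 had 11.32 and 11.29 in control and 9.55 and 9.59 in drought leaves (3.32-fold lower). AT2G43620, of the chitinase family, went from 6.47 and 6.42 to 4.46 and 4.47 (3.95-fold lower), and PDF1.4, of the defensin family, from 6.69 and 6.48 to 4.9 and 4.7 (3.45-fold lower). The peroxidase gene AT5G64120 fell 3.36-fold (5.75 and 6.0 to 4.16 and 4.09). The lipid transfer-like genes AT4G12500 and AZI1, the second known for a part in systemic immunity, fell 3.05-fold and 2.17-fold. These genes were high on both control arrays, and no drought array reached them, as for every probe set called lower. JAZ10, a repressor gene of jasmonate signalling, fell 2.24-fold, from 5.71 and 5.48 to 4.36 and 4.49. The jasmonate list was split: of 4 annotated members 1 was higher (PDF1.2, of the defensin family, 0.54, limma adjusted p = 0.0201, lost in each of the 4 fits without 1 WT array) and 1 lower (THI2.1) at the adjusted p, with a median of 0.19, and PDF1.2b differed by 0.14.

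**Figure D3:**
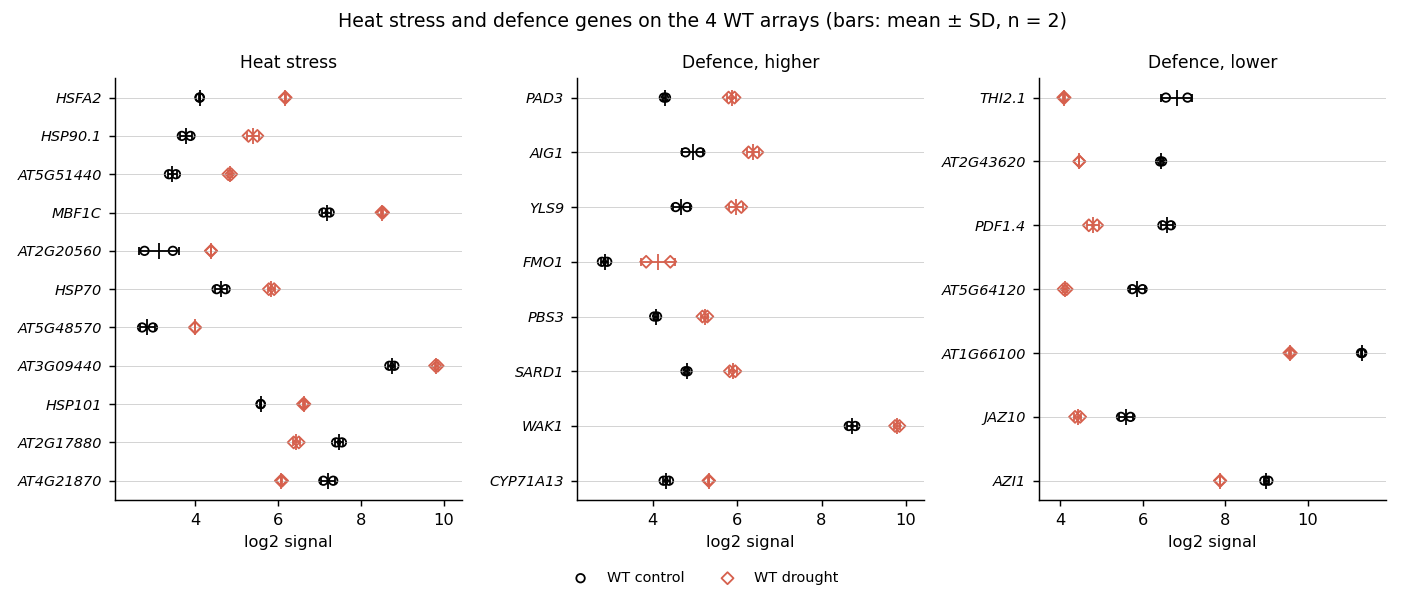
Log2 signal (horizontal axis) of heat stress genes and of defence genes called higher or lower on the 2 WT control (circles) and 2 WT drought (diamonds) arrays, with the mean and SD of each group (n = 2). The 9 higher heat genes lie to the right in drought and AT2G17880 and AT4G21870 to the left. The groups are apart for every gene, as for all called probe sets, although AT2G20560 and FMO1 spread widely in 1 group.

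Dehydration genes were split. Of 5 annotated members of the dehydration and abscisic acid list, 2 were higher and 1 was lower at the adjusted p (5.97% and 4.92% of all probe sets). Their median log2 fold change was 0.28 beside -0.04 for all probe sets. COR15A and COR15B, for chloroplast proteins that protect membranes, were already very bright in well-watered leaves, at 11.91 and 11.99 and 11.85 and 11.94. They were higher by 0.51 (limma adjusted p = 0.0149) and 0.39 (limma adjusted p = 0.0344). The dehydrin genes COR47 and LTI30 differed by 0.09 (limma adjusted p = 0.624) and 0.28 (limma adjusted p = 0.11). LEA4-5, a late embryogenesis abundant protein gene, was lower at -0.66 (5.26 and 5.22 against 4.72 and 4.43, limma adjusted p = 0.0155). COR15A and COR15B lost the adjusted p in each of the 4 fits without 1 WT array, with values of 0.47 to 0.55 and 0.35 to 0.44, and LEA4-5 lost it without WT control replicate 1 (-0.64), WT control replicate 2 (-0.69) and WT drought replicate 2 (-0.52).

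Further genes were named from the study's table, which holds only genes called on these arrays. DREB2A (AT5G05410), a transcription factor gene of drought and heat, rose 2.56-fold, from 5.72 and 5.71 to 7.18 and 6.97 (limma adjusted p = 6.15e-05). HIS1-3, a linker histone gene induced by water shortage, rose 2.16-fold (5.85 and 5.92 to 7.01 and 6.98). GolS2, for an enzyme that makes the protective sugar galactinol, had 5.76 and 5.78 in control and 6.86 and 6.73 in drought leaves, and its log2 fold change of 1.03 was 0.97 without WT drought replicate 1, under the threshold. ERD5, for the proline dehydrogenase that breaks down the solute proline, fell 2.13-fold, from 7.61 and 7.65 to 6.6 and 6.47. PYL5 (AT5G05440), an abscisic acid receptor gene, fell 3.36-fold, from 9.17 and 9.19 to 7.44 and 7.42 (limma adjusted p = 1.03e-05), and the related PYL6 differed by -0.66 (limma adjusted p = 0.0179, lost without WT control replicate 1 at -0.47, WT drought replicate 1 at -0.71 and WT drought replicate 2 at -0.61). In the wax pathway, CER1, which makes the alkanes of the cuticle, rose 2.67-fold (5.75 and 6.02 to 7.41 and 7.19), whereas CYP96A15, for the enzyme that oxidizes them further, fell 2.16-fold (5.62 and 5.55 to 4.47 and 4.47). STZ, a zinc finger repressor gene, is named by the platform annotation, as the only such member of the list of cold and rapid stress factors. It reached 1.0 and so missed the fold threshold by a little (limma adjusted p = 0.000356). The cold regulators CBF1 and CBF2 differed by -0.66 and -0.58 (limma adjusted p = 0.00654 and 0.0255). Without 1 WT array the values ranged from -0.72 to -0.59 for CBF1 and from -0.62 to -0.55 for CBF2. The adjusted p was lost in all 4 of these fits for CBF2 and, for CBF1, in each except that without WT control replicate 2.

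A set of growth, gibberellin and cell wall genes was among the falls, grouped after the values were seen. AT1G22690, of a gibberellin-regulated family, went from 9.93 and 9.73 to 8.12 and 8.11, a 3.29-fold fall (log2 fold change -1.72, SE 0.125, limma adjusted p = 2.95e-05). GASA1, of the same family, fell 2.63-fold, from 11.06 and 11.07 to 9.62 and 9.73. PRE1, a small regulator that promotes cell elongation, fell 2.55-fold (6.69 and 6.96 to 5.45 and 5.49). Of the wall genes, PMEPCRA, for a pectin methylesterase, fell 2.36-fold (7.23 and 7.16 to 6.04 and 5.88) and AGP22, for an arabinogalactan protein, 2.21-fold (5.05 and 5.08 to 3.89 and 3.95). XTH3, for an enzyme of the xyloglucan endotransglucosylase family, went from 4.83 and 4.7 to 3.37 and 3.2 (log2 fold change -1.48, SE 0.277). It kept its size but lost the adjusted p in 3 of the 4 fits without 1 WT array, with -1.41 without WT control replicate 1, -1.56 without WT drought replicate 1 and -1.4 without WT drought replicate 2. Of the 7 annotated expansin and xyloglucan enzyme genes, 2 were lower at the adjusted p and none was higher (4.92% and 5.97% of all probe sets). They were XTH18 (-0.46) and XTH19 (-0.68), and the median of the 7 was -0.10. Both lost the adjusted p in each of the 4 fits without 1 WT array, and the remaining 5 stayed between -0.25 and 0.09.

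Auxin response genes past the adjusted p were lower except for WES1, and cytokinin response genes were mixed. IAA29 (AT4G32280), of the AUX/IAA repressor family, fell 2.16-fold, from 7.72 and 7.71 to 6.62 and 6.59 (limma adjusted p = 0.000139). Among 7 annotated auxin response genes, 2 were lower and 1 was higher at the adjusted p (4.92% and 5.97% of all probe sets), with a median of -0.18. GH3.3, for an auxin-conjugating enzyme, was at -0.78 (limma adjusted p = 0.0207), and WES1, of the same family, at 0.41 (limma adjusted p = 0.0449). Both lost the adjusted p in each of the 4 fits without 1 WT array. Of the auxin genes named from the study's table, IAA5 was lower at -0.69 (limma adjusted p = 0.00494) and IAA1 at -0.5 (limma adjusted p = 0.0486). IAA2 differed by -0.27 (limma adjusted p = 0.155). Without 1 WT array the values ranged from -0.81 to -0.57 for IAA5 and from -0.63 to -0.38 for IAA1. The cytokinin response regulator genes ARR15 and RR16 differed in opposite directions, by -0.74 and 0.65. ARR15 lost the adjusted p without WT drought replicate 2 (-0.7), and RR16 without each array except WT control replicate 2 (0.55 without WT control replicate 1, 0.71 and 0.59 without WT drought replicates 1 and 2). RL6, of a small MYB-related family, fell 2.31-fold, and ACS8, for an enzyme of ethylene synthesis, 2.33-fold (5.96 and 5.87 to 4.53 and 4.85).

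Phosphate starvation genes named from the study's table were lower. PS2 (AT1G73010), for a phosphatase that phosphate shortage induces, went from 4.54 and 4.68 to 2.9 and 2.63, a 3.6-fold fall (limma adjusted p = 1.17e-05). PEPC1 (AT1G17710), for a related phosphatase, went from 4.03 and 4.59 to 2.6 and 2.55 (3.33-fold lower), and SPX3, which encodes a phosphate sensor protein, from 4.08 and 3.9 to 2.68 and 2.52 (2.62-fold lower). All 3 ended at log2 signals under 3, among the dim probe sets, so the size of their falls is uncertain. RNS1, a ribonuclease gene, differed by -0.91 (limma adjusted p = 0.0151, lost in each of the 4 fits without 1 WT array). The 1 annotated member of the list, AT1G73600, differed by 0.27 and did not pass the adjusted p. PAP27 (AT5G50400), of the purple acid phosphatase family, moved the other way and was among the 5 largest rises, from 7.55 and 7.71 to 9.98 and 9.84 (4.85-fold, limma adjusted p = 1.43e-06).

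Genes of darkness and senescence did not move as 1 group. SEN1 (AT4G35770), a gene induced in the dark and by sugar starvation, went from 10.59 and 10.63 to 8.89 and 8.72, a 3.5-fold fall from a bright signal (limma adjusted p = 8.02e-06). DIN11, also dark-induced, fell 2.22-fold (5.76 and 5.83 to 4.7 and 4.58). SAG12, for a cysteine protease known as a marker of late leaf senescence, rose 2.41-fold, from 5.01 and 5.32 to 6.5 and 6.37 (limma adjusted p = 0.000898). The senescence regulators WRKY6 and WRKY53, the 2 annotated members of the list, differed by -0.01 and -0.23 (limma adjusted p = 0.953 and 0.343). LBD38, of the nitrate response, differed by -0.94 (limma adjusted p = 0.000781).

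**Figure D4:**
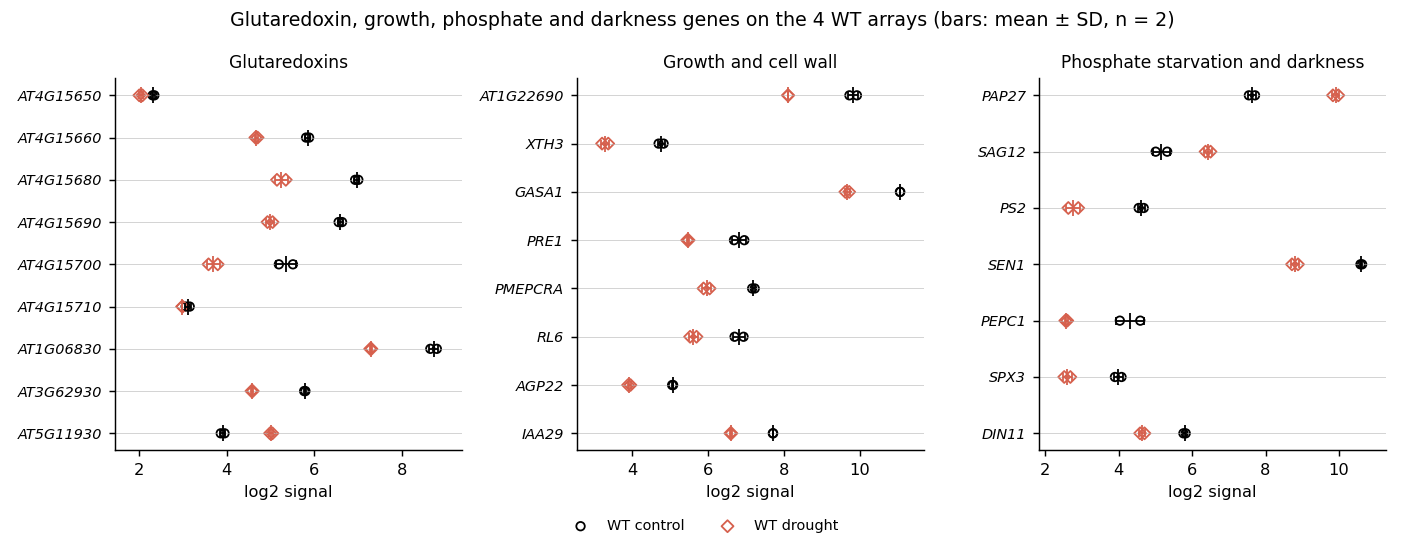
Log2 signal (horizontal axis) of glutaredoxin genes, of growth and cell wall genes, and of phosphate starvation and darkness genes on the 2 WT control (circles) and 2 WT drought (diamonds) arrays, with the mean and SD of each group (n = 2). AT4G15660, AT4G15680, AT4G15690 and AT4G15700 fall between the dim AT4G15650 and AT4G15710, the growth and wall genes were chosen for their falls, and PAP27 and SAG12 lie to the right in drought.

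Starch genes were slightly higher. Of 4 annotated genes of starch and sucrose metabolism, 3 were higher at the adjusted p and none was lower (5.97% and 4.92% of all probe sets), with a median of 0.56. They were APL3, for a subunit of the enzyme that starts starch synthesis (0.79, limma adjusted p = 0.0148), and PWD (0.61) and DPE1 (0.51), which act in starch breakdown. PWD and DPE1 lost the adjusted p in each of the 4 fits without 1 WT array, and APL3 without WT control replicate 1 (0.67) and without WT drought replicate 1 (0.67). PGL5 (AT5G24420), for a 6-phosphogluconolactonase of the oxidative pentose phosphate pathway, fell 3.41-fold, from 8.11 and 8.11 to 6.33 and 6.35.

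Plastid-encoded genes showed no common shift. Of 69 measured, 7 were higher and 5 lower at the adjusted p (5.97% and 4.92% of all probe sets), and the median was 0.04. psbT, of photosystem II, was at 1.14 (limma adjusted p = 0.0125), with control signals of 4.04 and 4.58 that lay well apart, and it lost its call in 3 of the 4 fits without 1 WT array (0.87 without WT control replicate 1, 1.18 without WT drought replicate 1 and 1.09 without WT drought replicate 2). petN, of the cytochrome complex, fell 2.05-fold, from 8.07 and 8.09 to 7.07 and 7.01. Flavonoid and anthocyanin genes were lower in part: of 5 annotated, DFR, for dihydroflavonol reductase, was lower (-0.72, limma adjusted p = 0.00322, lost without WT drought replicate 1 at -0.68), and the median was -0.15. MYB113, a regulator of that pathway, was at -1.07, with -0.96 and no call without WT control replicate 2.

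Some transcripts known from the anther tapetum, the nurse tissue of pollen, were lower in WT drought. AT1G66850, a lipid transfer protein gene of that list, went from 7.06 and 7.32 to 5.11 and 5.21, a 4.08-fold fall (limma adjusted p = 3.93e-06). GRP19, for an oleosin-like protein of the pollen coat, went from 4.64 and 4.45 to 3.14 and 3.29 (2.51-fold lower). ATA27 was at -1.07 and dim, and it lost its call without WT control replicate 1 (-0.9) and without WT drought replicate 2 (-0.95). Of 4 annotated tapetum genes, 2 were lower and none was higher, with a median of -0.62. The log2 of their summed signal was 7.30 and 7.49 in WT control and 5.66 and 5.71 in WT drought. Most of that sum was AT1G66850 alone. AMS, a master regulator of the tapetum, stayed at 2.33 and 2.18, among the dimmest probe sets. AT5G07230, also dim, differed by -0.17 (limma adjusted p = 0.481). Whether flower buds entered a sample was not tested.

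Several of the largest changes fell on genes outside these groups. AT1G20380, of the prolyl oligopeptidase family, was the third largest rise, from 5.84 and 5.93 to 8.44 and 8.37 (5.73-fold, limma adjusted p = 7.79e-07). AT3G56360, a gene without a known role, fell 4.64-fold, from 11.42 and 11.42 to 9.18 and 9.22. AT5G20790 and AT5G05250 fell 5.23-fold and 4.31-fold. The treatments were apart for each of the 4 in every pairing of arrays, as for every called probe set. BCS1, a gene of the mitochondrial membrane in stress, rose 2.75-fold (3.46 and 3.79 to 5.1 and 5.06), and AOX1D, for the alternative oxidase of the mitochondrion, 2.27-fold (3.99 and 4.21 to 5.16 and 5.4). AT1G54020, of the GDSL lipase family, fell 3.86-fold, from 6.31 and 6.43 to 4.37 and 4.47, and CYP81F4, a P450 of indole glucosinolate synthesis, 3.16-fold.

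The WT response was then set beside that of nNOS transgenic plants. Probe sets called higher in the WT had a median log2 fold change of 1.2 there and of 0.95 in nNOS transgenic plants, and 71 of 75 had the same sign in both. For those called lower the medians were -1.23 and -1.02, and 74 of 79 had the same sign. These probe sets were chosen for the size of their change in the WT, which by itself favours a larger WT median. The share with the same sign over all probe sets was not computed. At the same thresholds, 447 of the 22746 probe sets were called in nNOS transgenic plants. The difference between the responses (WT minus nNOS) passed the same thresholds for 170 of 22746 probe sets (0.747%; 99 above 0, 0.435%, and 71 below 0, 0.312%), and for 30 of the 154 called in the WT. Among these 30 the WT change was the larger for 7 that rose and 16 that fell, and the smaller for 1 that rose and 6 that fell. The WT arrays that made the calls also enter the difference, so the counts are a description. No zinc or iron gene named above was called for the difference, which was -0.17 for ZIP9, 0.51 for BHLH101 and 0.99 for AT1G47400 (limma adjusted p = 0.0201), the last just short of the fold threshold. Of the phosphate genes, PS2 and PEPC1 were called, at -1.07 and -1.45, and fell less in nNOS transgenic plants. Their nNOS control means were already dim, at 3.08 and 2.93, which left little room for a fall there. RNS1 was called in the opposite direction, at 1.39, with -2.3 in nNOS transgenic plants, and SPX3 was not called, at -0.97. PS2 lost this call without WT control replicate 2, WT drought replicate 2 or nNOS drought replicate 1, and PEPC1 without nNOS drought replicate 1, with values of -1.2 to -0.93 and -1.72 to -1.17 over the 8 fits without 1 array.

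CSD2 changed by -2.13 in WT leaves and -0.85 in nNOS leaves, a difference of -1.28 (SE 0.141, limma adjusted p = 0.00188). THI2.1 had -0.08 in nNOS transgenic plants (limma adjusted p = 0.723) and a difference of -2.65 (SE 0.212, limma adjusted p = 0.000451), and its nNOS signals were 4.53 and 4.59 without and 4.47 and 4.48 with drought. The 2 WT control arrays stood above the remaining 6 arrays for this gene. AT1G66850 and GRP19 of the tapetum list had 0.77 and 0.4 in nNOS transgenic plants, with differences of -2.8 and -1.73. GRP19 was dim in nNOS control, with a mean of 2.24. AT1G66850 was likewise highest on the 2 WT control arrays. Unlike THI2.1 it rose in nNOS transgenic plants, from 3.62 and 3.69 in control to 4.39 and 4.47 in drought. The wax gene CYP96A15 had -1.11 in the WT and rose by 0.9 in nNOS transgenic plants (limma adjusted p = 0.000245 for the rise, difference -2.01, limma adjusted p = 0.00035). Its nNOS control mean was a dim 2.98. AT1G54020, CYP81F4 and AT5G20790 had differences of -2.04, -1.46 and -1.46. In nNOS transgenic plants they changed by 0.09, -0.2 and -0.93, so AT1G54020 did not fall there. ENODL1 (AT5G53870), an early nodulin-like gene, rose in the WT from 4.65 and 4.97 to 6.28 and 6.18 and differed by -0.02 in nNOS transgenic plants (difference 1.45, limma adjusted p = 0.00416).

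A smaller WT response was also found. PDF1.4 changed by -1.78 in WT leaves and -4.01 in nNOS leaves, a difference of 2.23 (SE 0.184, limma adjusted p = 0.000465), and AT4G12500 by -1.61 and -3.42 (difference 1.81). The paper gives both genes as higher in nNOS transgenic than in WT plants in control, without a significant difference under drought. It gives ENODL1 as higher and AT1G54020 as lower in control, likewise without a significant difference under drought. For these 4 genes the genotypes thus differed in control and not under drought. The small heat shock protein gene AT5G51440 rose by 1.38 in WT leaves and 3.12 in nNOS leaves (difference -1.73, limma adjusted p = 0.000696). Its nNOS control mean was a dim 2.55, so the size of its rise there is uncertain. Each gene named for a difference from CSD2 on kept its call in all 8 fits without 1 array and after quantile, median and cyclic loess scaling. The difference draws on the nNOS control arrays, whose poly-A controls were brighter (8.98 and 9.40) than those of the other 6 arrays, and the part of this in the result was not tested.

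**Figure D5:**
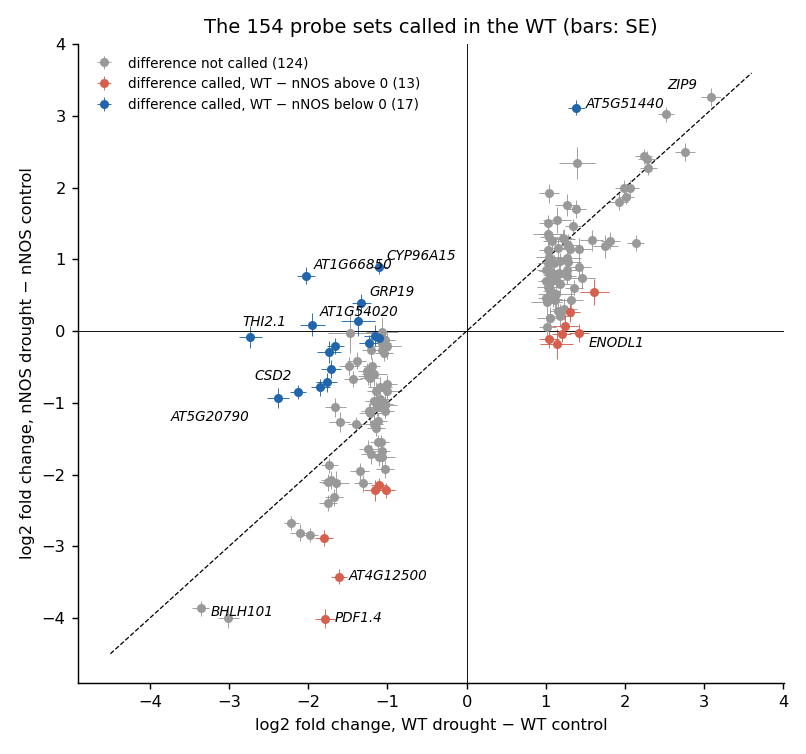
Log2 fold change after drought in nNOS transgenic plants (vertical axis) against that in the WT (horizontal axis) for the 154 probe sets called in the WT, with SE bars, the line of equal change (dashed) and colours for the 30 whose difference was called. ZIP9 and BHLH101 lie near the line, THI2.1, AT1G54020 and AT1G66850 near or above 0 on the vertical axis, and PDF1.4 and AT4G12500 far below the line.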

How the data were processed

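Leaf RNA of 4 groups (WT control, WT drought, nNOS control, nNOS drought; 2 ATH1 arrays each) was hybridized by the authors, who used affylmGUI in R. The log2 signals are their normalized values as deposited, and the normalization and probe summary are not given in the sources used here. Group means over the 8 arrays were fitted with limma 3.58.1 in R 4.3.3 (lmFit and eBayes). Adjusted p-values are Benjamini-Hochberg values over all 22810 probe sets, from which 64 controls were then left out. A call required an adjusted p up to 0.05 and a log2 change of 1 or more in size. In simulated data with known changes the procedure was checked. The platform annotation named 1 gene for 13513 probe sets and several for 503, and 8794 were not listed. Of the 154 called probe sets, 70 were named from it, 76 from the study's table of called genes and 8 hold several genes. List counts use annotated names only, since the study's table holds genes chosen on these arrays, and of several probe sets of a gene the one with the highest mean signal was taken. Named genes were drawn from the 15 largest rises and 15 largest falls among called probe sets of 1 named gene. They were also drawn from called members of the metal lists and up to 10 genes called for the genotype difference. From the other lists came members that were called or among the 6 most changed. Not every such member was named. For example, ERF4, GI, COL1, WSD1 and BCAT4, past the adjusted p but not the fold threshold, were left out. Further genes, such as glutaredoxin, growth, mitochondrial and further defence genes, were named after their values were seen. The members and lists were chosen with earlier results of these data known. Lists of seed, xylem, epidermis, aquaporin, nitrate, iron storage and abscisic acid receptor genes had no annotated member measured. Alternatives were other p-value and fold thresholds, 3 other normalizations, a signal filter, other fits, the replicate block and leaving out arrays. Probe sequences and promoters were not used here.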

Additional observations from a re-analysis of the deposited data

Results flagged for a closer look

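For 30 probe sets called in the WT, a limma contrast found the drought response to differ between WT and nNOS transgenic plants, at the same thresholds on the adjusted p and the fold change. The values below are WT minus nNOS on the log2 scale. The WT rise was larger for ENODL1 (1.45), AT4G27654 (1.32), AT1G24140 (1.23), the lipase-like defence gene AT3G48080 (1.17), the transcription factor gene NAC042 (1.14), HSP90.1 (1.07) and YLS9 (1.04), and smaller for AT5G51440 (-1.73). The WT fall was larger for AT1G66850 (-2.8), THI2.1 (-2.65), AT1G54020 (-2.04), CYP96A15 (-2.01), GRP19 (-1.73), the lectin gene JAL23 (-1.52), CYP81F4 (-1.46), AT5G20790 (-1.46) and PEPC1 (-1.45). It was also larger for CSD2 (-1.28), AT4G15680 (-1.19), DIN11 (-1.09), PMEPCRA (-1.07), PS2 (-1.07), PGL5 (-1.05) and AT3G23550 (-1.02). In nNOS control, PS2, PEPC1, GRP19, CYP96A15 and AT5G51440 were dim, with means of 3.08, 2.93, 2.24, 2.98 and 2.55. The WT fall was smaller for PDF1.4 (2.23), AT4G12500 (1.81), AT1G24575 (1.21), SEN1 (1.08), AT3G28310 (1.07) and IAA29 (1.04).

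Of these 30, 14 kept the call in each of the 8 fits without 1 array and 25 after all 3 other normalizations. HSP90.1, PGL5, AT3G48080, AT4G27654 and AT3G28310 each lost it in 7 of the 8 fits. Over these fits, HSP90.1 ranged from 0.75 to 1.39 and AT4G27654 from 0.99 to 1.64.

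Among list members that were not called in the WT, the difference was called for the salicylic acid repressor gene NIMIN1 (1.74), RNS1 (1.39), CBF2 (1.35), CBF1 (1.32) and the wax regulator MYB96 (1.01). It was negative for GSTF12 (-1.48), a glutathione transferase gene of anthocyanin transport, and for DFR (-1.1).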

How the results depend on the processing

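No called probe set changed sign under any alternative. The 75 higher and 79 lower calls were the same with unadjusted p-values, with the WT arrays alone, with trend and robust moderation, without any 1 nNOS array and without both nNOS control arrays, the last chosen after seeing the data. They became 73 and 79 at an adjusted p up to 0.01, 61 and 86 after quantile normalization, 65 and 87 after median centring and 66 and 85 after cyclic loess normalization. With no fold threshold they were 1357 and 1118, and with probe sets under a mean log2 signal of 5 left out 49 and 51, where fewer probe sets (11354) were tested. The counts with no fold threshold were 1125 and 970 after quantile, 1165 and 1396 after median and 1162 and 1066 after cyclic loess scaling. Their balance thus turned after median centring. Without 1 array the higher calls ranged from 74 to 89 and the lower calls from 79 to 88. In all 4 fits without 1 WT array, 119 of the 154 calls were kept, and the others had log2 fold changes up to 1.48 in size. Of 35 list members past the adjusted p but not the fold threshold, 31 lost it in at least 1 of these fits. The 170 calls for the difference between genotypes were 827 with no fold threshold, 93 at the stricter adjusted p, and from 88 (without WT drought replicate 2) to 287 (without nNOS control replicate 1) without 1 array, and 99 without WT drought replicate 1. Their share above 0 was 58.2%, but 70.5% after cyclic loess normalization, 48.1% with no fold threshold, 49.7% without nNOS control replicate 2 and 47.4% without nNOS drought replicate 2, so the balance turned. Same-numbered samples did not deviate together (correlations from -0.12 to 0.123 over probe sets), and with the replicate number as a block the counts were 75 and 79 in the WT and 172 for the difference. The 2 arrays per group limit the precision, and dim signals could not be told from absence.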
